A study of Caenorhabditis elegans with 24 samples.

Results

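The hsp-16 genes of Caenorhabditis elegans encode small heat shock proteins, and their reads were followed library by library in heated and unheated adult worms. The members were taken by symbol, as hsp-16.1, hsp-16.2, hsp-16.41 and hsp-16.48. The 4 symbols matched 6 gene IDs of the 19669 genes counted, because WormBase gives hsp-16.1 and hsp-16.48 to 2 IDs each. RefSeq names the second IDs hsp-16.11 and hsp-16.49, and those names are used below.

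Messenger RNA was sequenced, and so were ribosome footprints, the stretches of mRNA covered by translating ribosomes. The worms were adults of a mutant lacking C38D4.9, the gene named metl-5, or of the wild type (WT), and were at 37 or at 20 °C. The METL-5 protein methylates ribosomal RNA. Assay, strain and temperature gave 8 groups with 3 libraries each, 24 in all. The time spent at 37 °C is not given in the sources used here, and nothing tells whether the replicates were separate cultures, so p-values measure the spread between these libraries, which may be technical. Since whole worms were sequenced, fewer cells of a type and less RNA per cell cannot be told apart.

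Small heat shock proteins share an alpha-crystallin domain and hold unfolding proteins in a soluble state without using ATP. In C. elegans the hsp-16 genes are known targets of the heat shock factor HSF-1 and are little expressed in unstressed animals. They lie in divergent pairs, with a member of the hsp-16.1 and hsp-16.2 type on one side and a member of the hsp-16.41 and hsp-16.48 type on the other.

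In the WBcel235 annotation all 6 genes lie on chromosome V and none overlaps another gene. The gene hsp-16.2 (WBGene00002016, 1804334 to 1804957, minus strand) faces away from hsp-16.41 (WBGene00002018, 1805178 to 1805875, plus strand), with 220 bases between the genes and 346 between the start codons. The other 4 genes stand together within 3312 bases of the same chromosome. There hsp-16.1 (WBGene00002015, 9087293 to 9087782, minus strand) is paired with hsp-16.48 (WBGene00002019, 9088131 to 9088617, plus strand). The second pair is hsp-16.49 (WBGene00002020, 9089280 to 9089766, minus strand) with hsp-16.11 (WBGene00002017, 9090077 to 9090604, plus strand). Both of these pairs have 348 bases between their start codons. Each gene has 2 coding exons. The proteins of hsp-16.1, hsp-16.11 and hsp-16.2 have 145 residues, and those of hsp-16.41, hsp-16.48 and hsp-16.49 have 143. The annotation gives hsp-16.1, hsp-16.48 and hsp-16.49 no untranslated bases, so their exon lengths are close to their coding lengths.

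**Figure D1:**
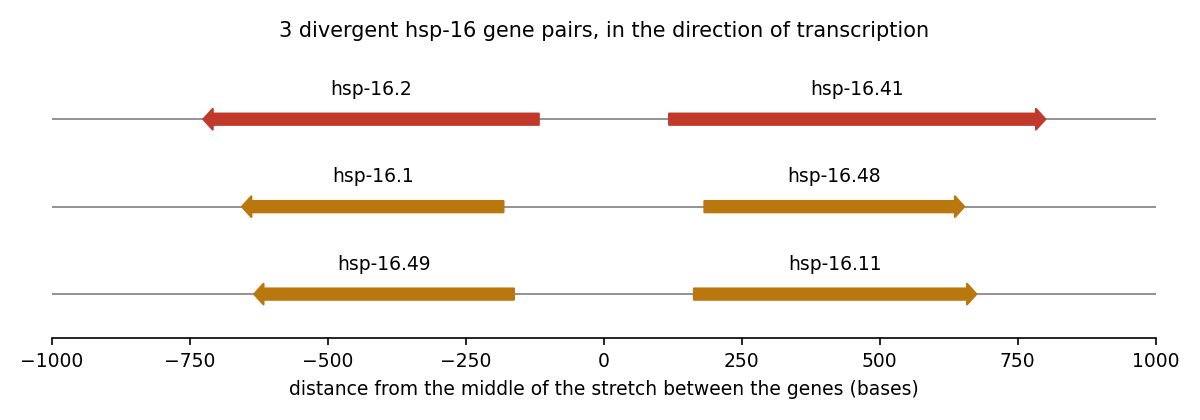
The 3 divergent hsp-16 gene pairs, each drawn to scale around the middle of the stretch between its genes (x axis, bases). Arrows point in the direction of transcription; the pair of hsp-16.2 and hsp-16.41 is at the top and the 2 pairs of the cluster are below it, and in each pair the genes are read away from each other.

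The libraries differed in ways that touch the members. Gene counts were 15522050 to 17239906 in mRNA libraries, 4410194 to 10947947 in footprint libraries at 37 °C and 11503305 to 19012050 in those at 20 °C. Reads of metl-5 were left in the mutant, at 2.15 to 3.38 counts per 1000000 gene counts (CPM) in mRNA against 6.48 to 10.2 CPM in WT, and this separated the mRNA libraries by strain. All 5 vitellogenins, yolk genes of the adult intestine, were present, at a sum of 14821 to 23815 CPM in mRNA. Of the 12 footprint libraries, 6 are doubted. In 4 of them reads marking both strains were present: metl-5 37 °C replicates 2 and 3, WT 37 °C replicate 3 and WT 20 °C replicate 2. The other 2 stood between the temperatures, 1 from unheated mutants (metl-5 20 °C replicate 2) and 1 from heated wild type (WT 37 °C replicate 2). Footprints of hsp-70, an inducible chaperone, were at 5083 CPM in that metl-5 library, against a mean of 18.1 CPM in the other metl-5 libraries at 20 °C. They were at 6909 CPM in that WT library, against a mean of 20845 CPM in the other WT libraries at 37 °C. Tests of hsp-16.2 and hsp-16.41 footprints are given with all libraries and with some or all of the doubted ones left out. Results of gene lists and of the genes most like the members are given with all libraries only. So are the strain and 20 °C comparisons of the ratio of hsp-16.41 to hsp-16.2.

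Heated worms held large amounts of the mRNAs of hsp-16.2 and its partner hsp-16.41, of which few reads were found at 20 °C. In metl-5 worms hsp-16.2 mRNA was at 2731, 2652 and 2054 CPM at 37 °C, against 3.20, 7.31 and 4.09 CPM at 20 °C. In WT worms it was at 2578, 3495 and 2414 CPM at 37 °C, against 4.37, 1.94 and 3.32 CPM at 20 °C. The lowest heated library of either strain thus lay far above the highest unheated one. For hsp-16.41 mRNA the metl-5 libraries held 3190, 3179 and 2366 CPM at 37 °C, against 4.41, 8.64 and 2.52 CPM at 20 °C. In the WT libraries hsp-16.41 mRNA was at 3256, 4014 and 2843 CPM at 37 °C, against 7.30, 2.30 and 4.05 CPM at 20 °C. Together these genes took 0.442 to 0.751% of all gene counts of a heated mRNA library.

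Each of the 6 members rose with heat in the mRNA of both strains. The percentage of all genes called higher at 37 °C was 10.8 in metl-5 and 9.76 in WT worms (13315 genes, edgeR's quasi-likelihood test, Benjamini-Hochberg adjusted p under 0.05). On the log2 scale, 37 over 20 °C, hsp-16.2 mRNA rose by 9.61 ± 0.435 (SE) in metl-5 (adjusted p = 2.77e-09). Its rise in WT was 10.23 ± 0.447 (adjusted p = 1.58e-09). hsp-16.41 mRNA rose by 9.76 ± 0.546 in metl-5 (adjusted p = 2.41e-08) and by 9.98 ± 0.552 in WT (adjusted p = 1.98e-08). All 6 members stayed called when any of the 12 mRNA libraries was left out. Scaled to total gene counts, the median of all genes moved to −0.60 in metl-5 and −0.49 in WT. The calls then split into 561 higher and 3248 lower in metl-5 (1440 and 1220 with TMM scaling) and 627 and 2549 in WT (1300 and 1132 with TMM). All 6 members stayed called there, with hsp-16.2 at 8.99 in metl-5 and 9.78 in WT. The members stood between places 6 and 24 of 13315 genes ordered by log2 change in metl-5, and between places 7 and 30 in WT.

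The 4 cluster genes gave far fewer mRNA reads. Each held 167 to 396 counts in a library at 37 °C and 0 to 4 counts in a library at 20 °C. The mRNA level of hsp-16.1 at 37 °C was 14.0 ± 2.87 CPM in metl-5 and 16.19 ± 1.81 CPM in WT (SD, n = 3 each). hsp-16.11 averaged 16.39 ± 4.13 CPM in metl-5 and 21.2 ± 4.30 CPM in WT, hsp-16.48 averaged 15.6 ± 4.12 and 20.2 ± 4.07 CPM, and hsp-16.49 averaged 15.5 ± 2.15 and 16.9 ± 1.81 CPM, metl-5 before WT. The 4 genes therefore lay within a narrow band of levels.

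With so few reads at 20 °C, the heat ratio of a cluster gene is best read from summed counts with a counting interval. Over 3 libraries each, hsp-16.1 had 692 counts at 37 °C against 1 at 20 °C in metl-5, a ratio of 698.4 (95% exact interval 124.9 to 27623, counting error only). In WT it had 783 counts at 37 °C against 2 at 20 °C, a ratio of 395.5 (109.1 to 3272). For hsp-16.11 the metl-5 counts were 810 and 8 (ratio 102.2, interval 51.6 to 237.5) and the WT counts 1024 and 1 (ratio 1035, interval 185.3 to 40901). The intervals are wide, and those of the strains overlap for each of these genes. The ratios of hsp-16.48 were 129.5 (59.2 to 354.0) in metl-5 and 196.8 (84.0 to 607.5) in WT. Those of hsp-16.49 were 256.0 (87.3 to 1244) in metl-5 and 118.1 (57.0 to 294.6) in WT.

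Per kilobase of exon, the scale on which genes can be compared, hsp-16.2 mRNA at 37 °C was at 4289 ± 641 CPM per kb in metl-5 and 4894 ± 1008 in WT. hsp-16.41 was at 4550 ± 739 CPM per kb in metl-5 and 5268 ± 928 in WT. Its mean exceeded that of hsp-16.2 by less than the SD between libraries. Within every heated mRNA library, however, hsp-16.41 stood above hsp-16.2, at 1.04 to 1.14 times its level per kb. The cluster genes were at 32.0 to 36.1 CPM per kb in metl-5 and 37.0 to 46.7 in WT, with overlapping ranges among themselves. Reads that map to more than one place were left out by the counting and made up 7.36 to 9.70% of the reads of a heated mRNA library. How far reads shared by the near-identical copies lowered the counts of the cluster genes, or of hsp-16.2 and hsp-16.41, was not tested, so these levels are uncertain.

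**Figure D2:**
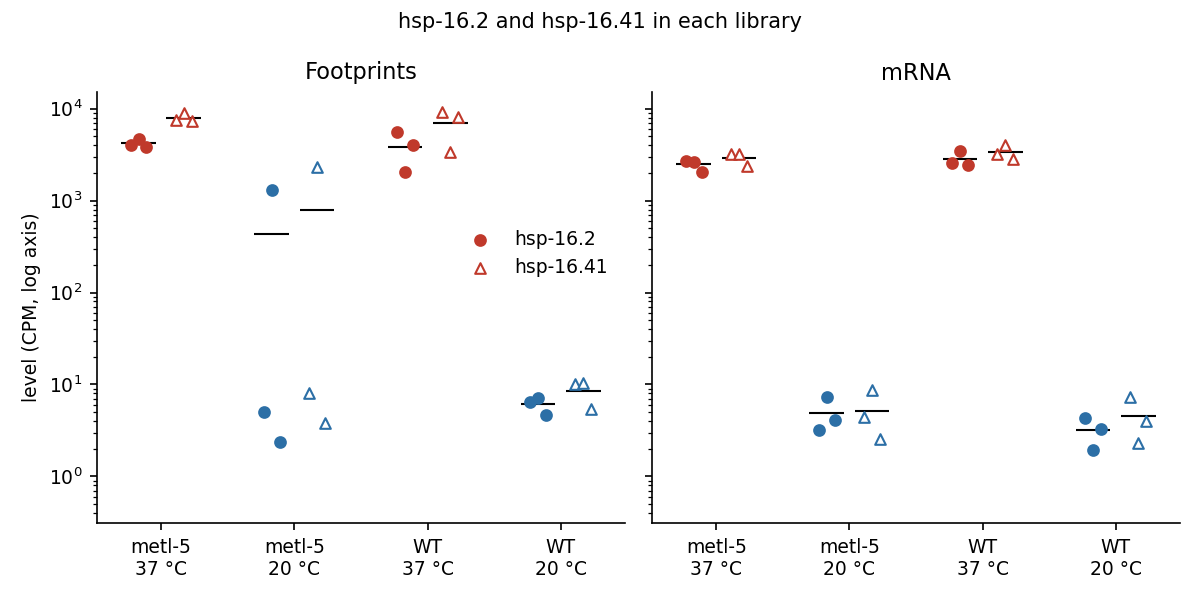
Level of hsp-16.2 (filled circles) and hsp-16.41 (open triangles) in every library, in CPM on a log axis, with footprints on the left and mRNA on the right; bars are means of 3 libraries. Heated libraries (red) stand above unheated ones (blue) except that metl-5 20 °C replicate 2 of the footprints lies near the heated libraries, at 1298 CPM for hsp-16.2 and 2351 CPM for hsp-16.41.

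Ribosome footprints on the divergent pair were also abundant at 37 °C. In metl-5 worms hsp-16.2 footprints were at 4059, 4703 and 3811 CPM at 37 °C, against 4.99, 1298 and 2.35 CPM at 20 °C. WT worms had 5576, 2039 and 4023 CPM at 37 °C, against 6.52, 7.16 and 4.65 CPM at 20 °C. The groups did not overlap, but metl-5 20 °C replicate 2 lay at 31.0% of the mean of the heated metl-5 libraries, and WT 37 °C replicate 2 at 42.5% of the other heated WT libraries. For hsp-16.41 the metl-5 footprints were at 7556, 8948 and 7359 CPM at 37 °C, against 7.99, 2351 and 3.82 CPM at 20 °C. The WT footprints of hsp-16.41 were at 9303, 3401 and 8088 CPM at 37 °C, against 9.99, 10.4 and 5.42 CPM at 20 °C. In the same 2 libraries hsp-16.41 stood at 29.6 and 39.1% of those means, and hsp-70 at 26.3 and 33.1%. All 3 chaperone genes thus lay well above the unheated and well below the heated libraries there.

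Of all genes in a heated footprint library, hsp-16.41 ranked 3rd to 16th by CPM and hsp-16.2 ranked 8th to 55th. In heated mRNA libraries their ranks were 33rd to 106th and 50th to 114th. The pair took 0.544 to 1.49% of the gene counts of a heated footprint library.

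In WT, both genes rose in footprints with heat. The log2 differences, 37 over 20 °C, were 9.22 ± 1.95 for hsp-16.2 and 9.57 ± 2.02 for hsp-16.41 (SE, edgeR adjusted p = 0.0261 for both), where 9.78% of 12387 genes were called higher. The call was lost without WT 20 °C replicate 1 (adjusted p = 0.103), WT 20 °C replicate 3 (0.0904), WT 37 °C replicate 1 (0.0798) or WT 37 °C replicate 3 (0.0866), each for both genes. Without the pair of libraries between the temperatures the differences were 9.52 ± 0.367 and 9.89 ± 0.399 (adjusted p = 7.07e-08 for both). Those libraries were doubted because they stood between the temperatures, so leaving them out favours a large difference with a small SE. That p-value is therefore no independent support for the rise.

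In metl-5, the rise did not pass the test with all libraries. Where 12.2% of genes were called higher, the log2 differences were 3.31 ± 1.48 for hsp-16.2 (edgeR adjusted p = 0.107) and 3.38 ± 1.52 for hsp-16.41 (0.109). Without metl-5 20 °C replicate 2 they were 9.99 ± 0.622 and 10.24 ± 0.680 (adjusted p = 2.25e-05 for both). This library too was doubted because it stood between the temperatures, so that p-value is no independent support either. Without all 6 doubted libraries, which leaves 1 heated metl-5 and 1 heated WT library, assumed to vary like the other groups, the differences were 9.88 ± 0.465 and 10.10 ± 0.535. The same fit gave 9.78 ± 0.460 and 10.05 ± 0.532 in WT. The heated WT library it keeps, replicate 1, had 34.8% unmapped reads, against 2.22 to 6.78% in the other footprint libraries.

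**Figure D3:**
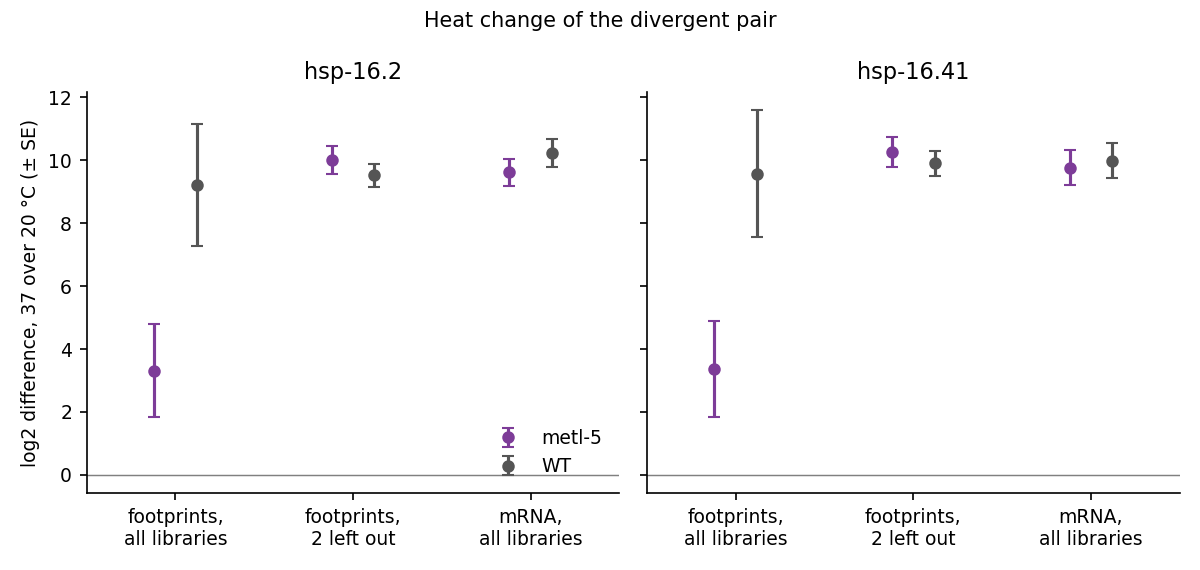
Heat change of hsp-16.2 (left) and hsp-16.41 (right) as log2 difference of 37 over 20 °C with its SE (y axis), for footprints with all libraries, for footprints without the 2 libraries between the temperatures, and for mRNA; metl-5 is drawn left of WT. The metl-5 footprint change is 3.31 and 3.38 with all libraries and 10.004 and 10.25 with the 2 left out.

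The 4 cluster genes were almost without counted footprints. At 37 °C a library held 0 to 4 footprint counts on each of them, 38 counts over 4 genes and 6 libraries, while at 20 °C there were 2 counts in all, both on hsp-16.1 in metl-5 20 °C replicate 2. Summed over the heated libraries, the cluster counts came to 0.0266% of the hsp-16.2 counts in footprints (95% exact interval 0.0188 to 0.0365%) and to 2.56% in mRNA (2.49 to 2.62%, counting error only). Multi-mapping reads were 9.25 to 16.9% of all reads in heated footprint libraries and 7.32 to 9.13% in unheated ones. None of the 4 genes passed the filter on low counts in footprints, so they enter no test there, and whether reads lost to their copies lie behind the low counts was not tested. Of the stranded footprint reads on the members at 37 °C, 1 lay on the opposite strand, on hsp-16.41.

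**Figure D4:**
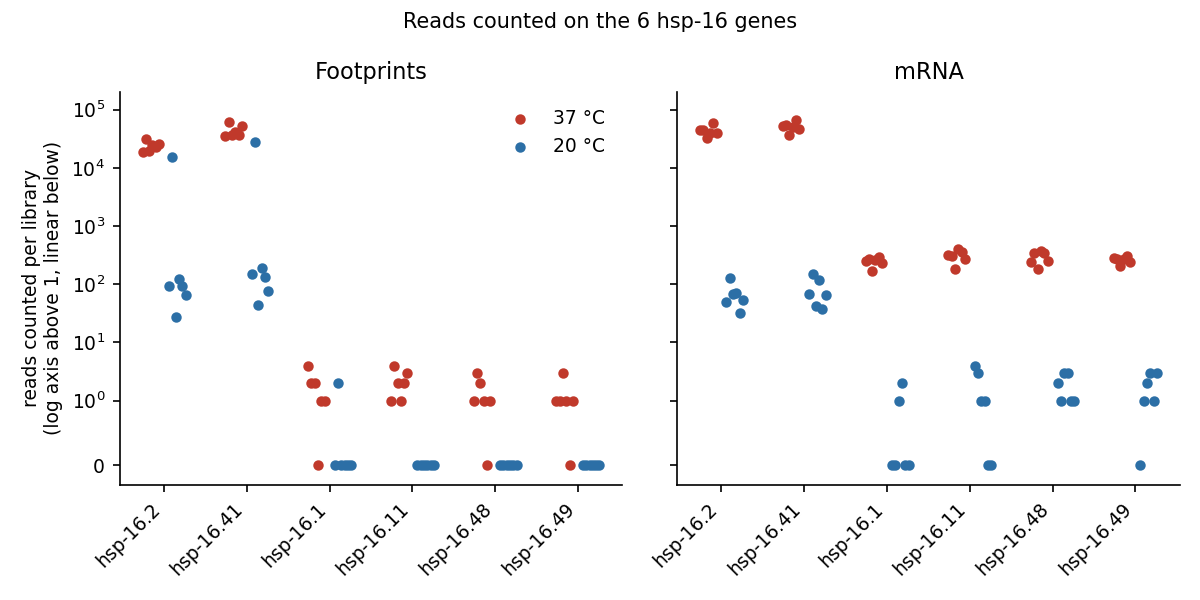
Reads counted on the 6 hsp-16 genes in each library (y axis, log above 1 and linear below), with footprints on the left and mRNA on the right, at 37 °C (red) and 20 °C (blue). At 37 °C the 4 cluster genes hold 167 to 396 mRNA counts a library but 0 to 4 footprint counts, whereas hsp-16.2 and hsp-16.41 hold 31885 to 66916 mRNA counts and 18883 to 60435 footprint counts.

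Within the divergent pair, hsp-16.41 stood higher relative to hsp-16.2 in footprints than in mRNA. At 37 °C the ratio of hsp-16.41 to hsp-16.2 was 1.87 ± 0.144 in footprints (per kb of coding sequence, SD, n = 6, range 1.69 to 2.04) and 1.07 ± 0.0384 in mRNA (per kb of exon, SD, n = 6, range 1.04 to 1.14). The ranges did not overlap. The log2 difference was 0.80 (two-sided exact permutation test, p = 0.00216, which is the smallest that 6 libraries against 6 allow; adjusted p = 0.00866 over 4 comparisons of this ratio). That test takes the libraries as unpaired. With each footprint library paired with the mRNA library of its strain and number, the exact permutation p was 0.03125, the smallest that 6 pairs allow. The adjusted p of 0.0625 did not pass the threshold. It is also the smallest that these 4 comparisons allow with pairs, so the paired version could not pass and decides nothing. All 6 pairs had the higher ratio in footprints. The ratio was compared after its values had been seen, and it is unchanged by any scaling of libraries.

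The difference was 0.86 within metl-5 and 0.74 within WT, where 3 libraries against 3 allow no exact p below 0.1. Without the 6 doubted libraries, which leaves 2 footprint libraries, it was 0.74 (exact p = 0.0714). Using coding length in both assays gave 0.63. At 20 °C the ratio was 1.55 ± 0.219 in footprints and 1.09 ± 0.311 in mRNA (SD, n = 6 each), with overlapping ranges (two-sided exact permutation p = 0.013, adjusted p = 0.026, and with pairs 0.03125 and 0.0625). The highest footprint ratio at 20 °C, 1.84, came from metl-5 20 °C replicate 2, which stood between the temperatures. No version of the 20 °C comparison was run without that library, so its p-values do not stand for unheated worms alone. Between the strains at 37 °C the ratio in footprints was 1.92 ± 0.0354 in metl-5 and 1.81 ± 0.200 in WT (exact p = 0.4, adjusted p = 0.533). In mRNA it was 1.06 ± 0.0216 in metl-5 and 1.08 ± 0.0536 in WT (exact p = 0.7, adjusted p = 0.7). Reads marking both strains were present in metl-5 replicates 2 and 3 and WT replicate 3 of the heated footprints, which limits the strain comparison there. The part that reads shared with other copies play in these ratios was not tested.

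**Figure D5:**
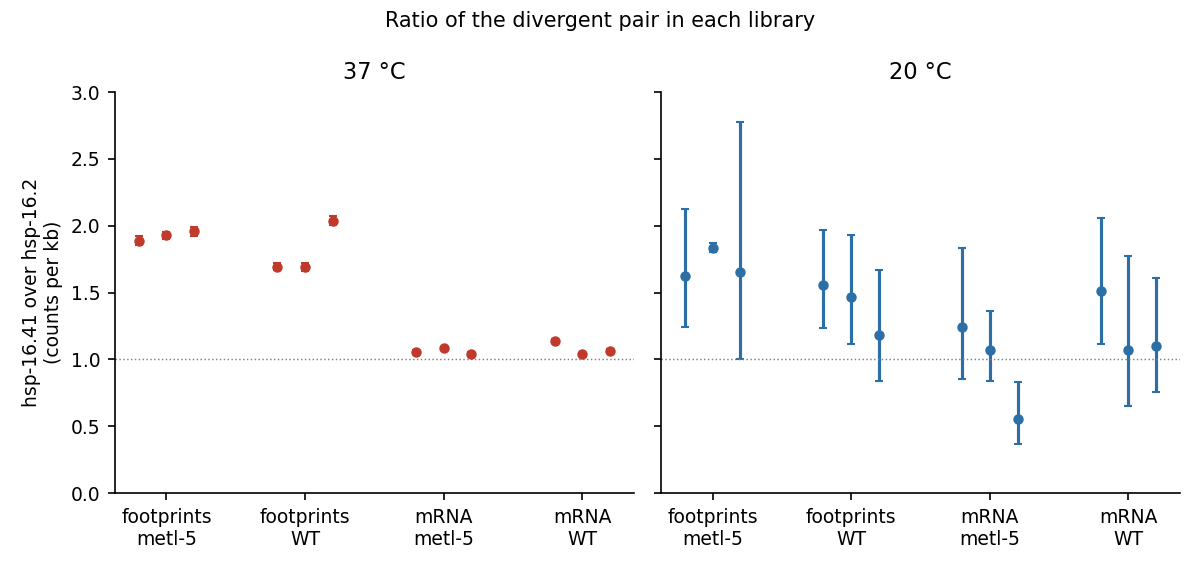
Ratio of hsp-16.41 to hsp-16.2 counts per kb (y axis, coding length for footprints, exon length for mRNA) in each library at 37 °C (left) and 20 °C (right), with 95% exact binomial intervals that cover counting error only; the dotted line is a ratio of 1. At 37 °C the 6 footprint libraries lie between 1.69 and 2.04 and the 6 mRNA libraries between 1.04 and 1.14.

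Footprints per mRNA, the translational efficiency, was tested in one count model over all 24 libraries and 12079 genes as the change of footprints beyond that of mRNA. In heated metl-5 worms the ratio of footprint to mRNA CPM of hsp-16.2 was 1.49, 1.77 and 1.86, and in heated WT worms 2.16, 0.583 and 1.67. For hsp-16.41 it was 2.37, 2.81 and 3.11 in heated metl-5 and 2.86, 0.847 and 2.84 in heated WT. The lowest WT value of each gene came from replicate 2, whose footprint library stood between the temperatures. Among the genes tested, the percentile of this ratio ran from 51.5 to 68.8 in heated metl-5 and from 19.2 to 63.3 in heated WT for hsp-16.2. For hsp-16.41 it ran from 71.0 to 87.1 in heated metl-5 and from 33.4 to 78.8 in heated WT.

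The heat change of translational efficiency of the pair passed the test in metl-5 with all libraries, and that call rested on one library. Where 9.72% of genes were called lower, hsp-16.2 fell by 6.24 ± 1.61 on the log2 scale (SE, edgeR adjusted p = 0.00882) and hsp-16.41 fell by 6.33 ± 1.67 (0.0102). Without metl-5 20 °C replicate 2, in which hsp-16.2 had 178 times as much footprint as mRNA CPM and hsp-16.41 272 times, the differences were 0.44 ± 0.537 and 0.52 ± 0.633 (adjusted p = 0.643 and 0.635). With each mRNA library blocked with the footprint library of its number, neither gene was called, at −1.72 ± 1.49 and −1.70 ± 1.45 (adjusted p = 0.432 and 0.429). With a single filter over all 24 libraries, the first one used, hsp-16.1 was called as well, at −6.31 ± 1.83 (adjusted p = 0.0207); its metl-5 footprints were 8 counts at 37 °C and 2 at 20 °C. In WT the heat changes were −0.99 ± 1.53 for hsp-16.2 and −0.38 ± 1.57 for hsp-16.41 (adjusted p = 0.721 and 0.903). Their intervals were −3.99 to 2.01 and −3.45 to 2.68, where 8.3% of genes were called lower. That fit shares its spread over all groups, metl-5 20 °C replicate 2 included. With only the WT groups in the fit the changes were −0.96 ± 0.519 and −0.37 ± 0.589 (edgeR adjusted p = 0.242 and 0.742). Without the pair of libraries between the temperatures they were −0.69 ± 0.456 and −0.06 ± 0.539 (edgeR adjusted p = 0.29 and 0.949). Scaled to total gene counts, the calls of all genes split into 2561 higher and 500 lower in metl-5 (1354 and 1174 with TMM) and 2356 and 439 in WT (1333 and 1002 with TMM).

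No member passed the test between the strains, at either temperature or in either assay. In mRNA, 0.03% of genes were called at 37 °C and 0.03% at 20 °C, and in footprints 0.0%, where 238 genes at 37 °C and 86 at 20 °C had an unadjusted edgeR p under 0.05 (DESeq2 called 0 and 3). At 37 °C the mRNA log2 difference, metl-5 over WT, was −0.19 ± 0.298 for hsp-16.2, with an interval of −0.77 to 0.39, and −0.22 ± 0.372 for hsp-16.41, with an interval of −0.95 to 0.51. The 4 cluster genes lay between −0.43 and −0.15 (edgeR adjusted p = 1 for all 6 members). All 6 estimates were below 0, and the 95% interval of each included 0.

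At 20 °C the mRNA difference was 0.43 ± 0.330 for hsp-16.2 and −0.0041 ± 0.406 for hsp-16.41. Footprints at 37 °C differed by 0.15 ± 1.36 and 0.24 ± 1.39, in a fit that shares its spread over all groups. With only the heated groups in the fit the differences were 0.13 ± 0.377 and 0.22 ± 0.391. Both estimates turned negative without the pair of libraries between the temperatures, at −0.14 ± 0.277 and −0.07 ± 0.298. Reads marking both strains were present in metl-5 replicates 2 and 3 and WT replicate 3 of these heated footprints, which limits this comparison. Without the 6 doubted libraries, which leaves 1 heated footprint library of each strain, the differences were −0.40 and −0.25. Footprints at 20 °C differed by 6.06 ± 1.70 and 6.43 ± 1.77 (edgeR adjusted p = 1 for both), and by −0.61 ± 0.423 and −0.42 ± 0.446 without metl-5 20 °C replicate 2. In the authors' deposited table of footprints at 20 °C the log2 fold changes were −0.62 for hsp-16.2 and −0.43 for hsp-16.41, with an adjusted p of 1. In the authors' deposited table at 37 °C they were −0.15 and −0.09. At both temperatures the authors' values lay nearer the estimates with the libraries between the temperatures left out than those with all libraries. Whether the authors used the same set of libraries was not tested.

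The heat response itself did not differ by strain past the threshold for any member tested, which in footprints were hsp-16.2 and hsp-16.41 only. In mRNA the change in metl-5 less that in WT was −0.62 ± 0.444 for hsp-16.2 and −0.22 ± 0.550 for hsp-16.41, with intervals of −1.49 to 0.25 and −1.29 to 0.86. For hsp-16.11 it was −2.84 ± 1.03 (unadjusted p = 0.0139, edgeR adjusted p = 1), on 8 and 1 counts at 20 °C in metl-5 and WT. In footprints it was −5.91 ± 2.08 for hsp-16.2 and −6.19 ± 2.14 for hsp-16.41 with all libraries, and 0.48 ± 0.419 and 0.36 ± 0.441 without the pair between the temperatures. In both assays 0.0% of genes were called, with 93 mRNA and 62 footprint genes at an unadjusted edgeR p under 0.05 and 0 called by DESeq2. The strain difference in translational efficiency was 0.36 ± 1.47 for hsp-16.2 and 0.47 ± 1.53 for hsp-16.41 at 37 °C. With only the heated groups in the fit it was 0.34 ± 0.473 and 0.46 ± 0.495. Without the 6 doubted libraries, which leaves 1 heated footprint library of each strain, it was −0.19 and −0.0022. At 20 °C it was 5.61 ± 1.64 and 6.42 ± 1.71, and −1.07 ± 0.558 and −0.43 ± 0.647 without metl-5 20 °C replicate 2. Of all genes, 0.0% were called in either comparison of translational efficiency, with an unadjusted p under 0.05 for 164 genes at 37 °C and 48 at 20 °C, and DESeq2 called 3 and 1.

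Other genes of the heat shock response rose beside the members. The share of all genes called higher in heat mRNA was the 10.8% in metl-5 and 9.76% in WT given above, and 9.16% in metl-5 and 8.5% in WT were called lower. Of 11 small heat shock genes outside hsp-16, 7 rose and 0 fell in the mRNA of each strain, with a median log2 change of 1.46 in metl-5 and 1.28 in WT, against −0.01 and −0.02 over all genes. The largest were F08H9.4, at 6.61 ± 0.665 in metl-5 and 7.27 ± 0.717 in WT, and hsp-12.6, at 3.87 ± 0.746 and 3.70 ± 0.753 (edgeR adjusted p = 9.03e-06, 7.1e-06, 0.00264 and 0.00415). Of 16 HSP70, HSP90 and co-chaperone genes, 15 rose and 0 fell in either strain, with medians of 1.80 in metl-5 and 1.78 in WT. Their largest WT changes were those of F44E5.4 (8.31 ± 0.575 in metl-5, 8.93 ± 0.593 in WT), whose reads can be shared with its near copy F44E5.5, and of hsp-70 (8.31 ± 0.402 and 8.75 ± 0.410). In footprints 8 of 10 tested small heat shock genes outside hsp-16 rose in metl-5, where 12.2% of all genes were called higher, and 7 of 10 in WT, where 9.78% were.

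Of 9 matched regulators, 1 rose and 1 fell in the mRNA of each strain, which is near the shares of all genes called higher and lower. These were pqm-1 and daf-16: pqm-1, a transcription factor of stress responses, rose by 1.13 ± 0.345 in metl-5 and 1.28 ± 0.345 in WT, and daf-16, the FOXO factor of insulin signalling, fell by 1.73 ± 0.276 and 1.51 ± 0.274 (edgeR adjusted p = 0.0318, 0.0188, 0.0007 and 0.00189). The mRNA of hsf-1, the factor that activates the hsp-16 genes, differed by −0.67 ± 0.280 in metl-5 and −0.60 ± 0.280 in WT (edgeR adjusted p = 0.1 and 0.147).

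Markers of tissues and of the germ line also differed between the temperatures. In mRNA all 3 body wall muscle genes rose with heat in both strains. Their summed level was 2422 to 4462 CPM in metl-5 and 2357 to 3815 CPM in WT at 37 °C, against 1880 to 2498 CPM in metl-5 and 1638 to 2334 CPM in WT at 20 °C. Of 5 sperm genes 3 fell in each strain, with sums of 289.6 to 331.1 CPM in metl-5 and 312.6 to 419.2 CPM in WT at 37 °C, against 640.3 to 2135 CPM and 660.9 to 2221 CPM at 20 °C. Of 4 oocyte genes 1 fell in metl-5 and 2 in WT, and of 5 vitellogenins 1 rose in each, against the shares of all genes given above. In footprints all 5 vitellogenins fell in metl-5, where 14.7% of all genes were called lower, and 0 passed the test in WT, where 6.93% were. Their median log2 change was −1.86 in metl-5 and −1.55 in WT. The heat change differed between the strains past the threshold for 0 of the 5, so these calls show no strain difference. Of the 3 muscle genes, 0 were called in the footprints of either strain, with median log2 changes of −0.50 in metl-5 and −0.46 in WT. No marker was at 0 in all libraries of an assay, and the part of these genes in the hsp-16 results was not tested.

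The profiles most like that of the 4 symbols over the 12 mRNA libraries, by root mean square difference of centred log2(CPM + 0.5) among 11654 genes, were those of Y53F4B.7 (0.413), Y38H6C.8 (0.478), F44E5.5 (0.498), fbxb-14 (0.523) and hsp-70 (0.528). Over the 12 footprint libraries they were those of F08H9.4 (0.419), tent-5 (0.512), Y38H6C.8 (0.524), F19B2.5 (0.524) and Y53F4B.7 (0.525), among 11593 genes. Y53F4B.7 and Y38H6C.8 were thus in both sets of 5. Since hsp-16.1 and hsp-16.48 had almost no footprint counts, likeness to hsp-16.2 and hsp-16.41 alone was added after their values were seen. The closest gene was then hsp-70 in both assays, at 0.263 in footprints and 0.763 in mRNA, followed by R11A5.3, at 0.849 and 0.818.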

How the data were processed

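Per the labels, mRNA and ribosome footprints were sequenced from adult worms of 2 strains at 2 temperatures. Each library came as a deposited table of raw counts per gene, laid out as STAR writes it; per the submitters' processing notes the tools were STAR and DESeq2, with no version. Sources used here give neither aligner options nor genome build; gene positions are from the WBcel235 annotation. Unstranded counts were used for mRNA and sense-strand counts for footprints; multi-mapping and unassigned reads were left out. The deposited tables of the authors' own comparisons give log2 fold changes and p-values, per the file headers, and entered no test.

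Counts were filtered with filterByExpr, scaled with TMM and tested with edgeR 4.0.16 (R 4.3.3; quasi-likelihood, Benjamini-Hochberg over all genes tested, threshold 0.05), fitting the 12 libraries of each assay together. CPM are counts per 1000000 gene counts. SE is the log2 difference over the square root of F, and intervals are 95% normal intervals from it. The 14 comparisons, 8 gene lists beside the members (2 names were not matched) and the alternatives, which include DESeq2 1.42.0 and leaving out each library, were chosen with earlier results of these data known, as were the members and the 6 doubted libraries. Named genes are the members and their copies, the 5 genes most like them in each assay, the 2 most changed called genes of each list, and metl-5 and hsp-70; hsf-1 and R11A5.3 were added after values were seen. Scripts were tested on simulated counts.

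Translational efficiency was first run with one filter over all 24 libraries (13895 genes). After those results had been seen, the filter was changed to passing in each assay (12079 genes), which matches earlier processing of these data; both versions are reported. Replicate numbers were taken to pair the samples where every correlation of same-numbered deviations from group means was over 0.1 (lowest 0.107). This held between strains in each assay, between temperatures in footprints, and between the mRNA and footprint libraries of a group. It did not hold between temperatures in mRNA (−0.03 to 0.45). The main edgeR tests held no replicate block and so took no account of this pairing. The block was run as an alternative. Libraries with different numbers were not compared, so whether the numbers mark true pairs was not tested. Gene names come from WormBase and RefSeq tables, and 19332 genes had a symbol.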

Additional observations from a re-analysis of the deposited data

How the results depend on the processing

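The direction and call of all 6 members in heat mRNA held under every alternative run. Footprint results rested on few libraries. DESeq2 gave hsp-16.41 no adjusted p in several footprint comparisons. Members called in heat footprints numbered 1 with DESeq2 in WT, and in metl-5 2 without a filter (hsp-16.48 and hsp-16.11), without the pair between the temperatures, and without the 6 doubted libraries. Members called in heat translational efficiency of metl-5 numbered 0 with the replicate block, without that pair, and without those 6. The causes were not tested.

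Counts over all genes moved as follows. In heat mRNA, where numbers were not taken to pair the samples, the replicate block gave 4054 in metl-5 and 3947 in WT, against 2660 and 2432. In heat footprints of WT (2071) there were 3349 with DESeq2, 118 with the compared groups alone, 3872 with the replicate block and 4795 without the pair; the block gave 4896 in metl-5, against 3332. The strain comparison of mRNA (4 at each temperature) gave 9 at 20 °C with DESeq2, 7 without a filter and 8 with the replicate block, and 7 at 37 °C with DESeq2. That of footprints (0) gave 3 with DESeq2, 2 without a filter, 2 with the compared groups alone and 3 without the 6 doubted libraries at 20 °C, and 3 without those at 37 °C. Translational efficiency gave 1325 with the compared groups alone and 1535 without the 6 doubted libraries for heat in WT (2335). Between strains (0) it gave 1 with DESeq2 and 1 with the replicate block at 20 °C, and 3 with DESeq2 at 37 °C.

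Signs of single members turned only where nothing was called, apart from translational efficiency in heated metl-5. For hsp-16.41 mRNA between strains at 20 °C (−0.0041) the values were 0.00088 with DESeq2, 0.19 with total counts, 0.0048 with RLE, 0.023 without a filter, 0.010 with the compared groups alone and 0.032 with the replicate block. In what follows hsp-16.2 is given before hsp-16.41. Without the 6 doubted libraries, strain footprints were −0.50 and −0.29 at 20 °C and −0.40 and −0.25 at 37 °C, and heat by strain in footprints 0.098 and 0.045. In the same fit translational efficiency was 0.37 and 0.43 for heat in metl-5, −0.94 and −0.28 between strains at 20 °C, −0.19 and −0.0022 at 37 °C, and 0.16 for heat in WT in hsp-16.41, which was 0.12 with total counts. Without the pair, strain footprints were −0.62 and −0.43 at 20 °C and −0.14 and −0.073 at 37 °C, heat by strain in footprints 0.48 and 0.36, and translational efficiency 0.43 and 0.52 for heat in metl-5 and −1.06 and −0.43 between strains at 20 °C. With the replicate block, strain footprints at 37 °C were −0.093 and −0.035. The block changed no other call of a member. With libraries paired by number, chosen after seeing the data, the differences of 0.80 at 37 °C and 0.55 at 20 °C in the hsp-16.41 to hsp-16.2 ratio between assays no longer passed the threshold (adjusted exact permutation p = 0.0625 for each). That is the smallest adjusted p that the paired comparisons allow, so they could not pass and decide nothing.

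With TMM-scaled CPM, mean mRNA levels at 37 °C were 2968 for hsp-16.2 in metl-5, 3480 and 4057 for hsp-16.41 in metl-5 and WT, 19.7 for hsp-16.1, 26.1 for hsp-16.11 and 24.7 for hsp-16.48 in WT, and 18.5 and 20.6 for hsp-16.49 in metl-5 and WT. The log2 difference of the hsp-16.41 to hsp-16.2 ratio between assays was 0.74 without the 6 doubted libraries, 0.86 in metl-5 and 0.74 in WT, and 0.74 to 0.85 with each replicate left out.

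Leaving out 1 library at a time gave these ranges. Genes called in heat mRNA numbered 1266 to 2900 in metl-5 and 1175 to 2988 in WT. In heat footprints they numbered 0 to 4349 in metl-5, with 0 to 2 members, and 0 to 4931 in WT, with 0 to 2 members. Between strains in footprints at 20 °C, 0 to 3 genes were called, with hsp-16.2 at −0.61 to 6.64 and hsp-16.41 at −0.42 to 7.01. At 37 °C they were at −0.15 to 0.48 and −0.082 to 0.48. hsp-16.41 mRNA between strains at 20 °C was at −0.48 to 0.59, and its heat by strain at −0.80 to 0.27. Heat by strain in footprints gave 0 to 1 genes, with −6.49 to 0.76 and −6.78 to 0.65. Translational efficiency for heat gave 1638 to 2800 genes and 0 to 2 members in metl-5, at −6.83 to 0.44 and −6.92 to 0.52, and 1246 to 3283 genes in WT. Between strains it was −1.07 to 6.20 and −0.43 to 7.01 at 20 °C, with 0 to 2 genes called at 37 °C. The cluster genes, at 0 to 4 footprint counts a library, entered tests of footprints alone only without a filter, where hsp-16.11 was also called in heated WT. They entered translational efficiency tests without a filter and with the single filter over all 24 libraries. There hsp-16.1 was called for heat in metl-5, at −6.35 and −6.31 (edgeR adjusted p = 0.0232 and 0.0207).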
